A study of Glycine max with 30 samples.

Results

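Accessible regions called in every library of a daily time course of soybean leaves are described here. An accessible region is a stretch of DNA that ATAC-seq (assay for transposase-accessible chromatin) finds open: a transposase cuts it more often than its surroundings, and the cut fragments are sequenced. The accessible regions of the 6 time points were joined wherever they overlapped or touched, which gave 35922 regions. Of these, 2275 (6.33%) were overlapped by at least 1 bp of a peak in each of the 18 libraries. They covered 1.58 Mb of the 15.8 Mb held by all regions. The regions were selected on the peak calls of the same 18 libraries, so their presence at all times is given and not a finding, and a region that drops under the calling threshold in even 1 library is left out by construction.

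The plants were wild-type Glycine max of the cultivar Ws82. They were grown in short days of 8 h light and 16 h dark for about 18 days and then kept in constant light, and their first trifoliate leaves were collected every 4 h. The time points were ZT0, ZT4, ZT8, ZT12, ZT16 and ZT20, the names in the labels, with 3 replicate libraries each, lettered L, M and R (the study counts the same samplings from the start of constant light, 1 cycle later). Of the 30 samples, 12 others were not analysed here. The methods of the study call the libraries of a time point biological replicates, and the labels do not say which plants a letter stands for. A whole leaf holds many cell types, and a peak that is open in fewer cells cannot be told apart from one that is less open in each cell.

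In plants, as in other eukaryotes, open chromatin marks places where nucleosomes are sparse and DNA-binding proteins can reach the DNA, often promoters and enhancers. The circadian clock is a set of transcription factors that repress or activate each other in turn round the day, with morning factors of the LHY and CCA1 kind and evening factors such as TOC1 and the evening complex. Clock output can raise and lower the openness of a region without closing it, and a list of present and absent peaks does not show such a change. What can still change in a region that is always called was followed: its height rank, the place of its summit and its width.

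The regions had a median length of 639 bp, with a middle 50% of 467 to 845.5 bp and a full range of 172 to 3339 bp. Within them, the tallest peak of a library had a median width of 379 bp. Peak height was read as the −log10 q value that the peak caller gave, a measure of how unlikely the pile of fragments is against the local background. The median −log10 q over the 18 libraries ran over the regions from 4.37 to 4833, with a median of 16.0, and the median fold over background ran from 1.63 to 64.3, with a median of 9.67. Most of the regions, 2085 (91.6%), were in all 6 lists of merged replicates, while 138 were in 5, 22 in 4, 9 in 3, 13 in 2 and 8 in only 1. They lay on all 20 chromosomes, with 74 to 140 on each, or 5.25% to 7.57% of a chromosome's regions. The median distance to the nearest other region of the set was 88.4 kb, and 150 regions had another within 5 kb.

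The calling rule kept some regions by a narrow margin. The lowest −log10 q in any library was 1.34, for Chr20:1291920-1292588 in ZT0 L, where that peak stood at the very end of the list, and the same region had 2.87 to 14.2 in the other 17 libraries. Chr13:16875786-16876457 and Chr12:38755800-38756494 each had 1.35 in ZT4 M, and at most 25.4 and 18.2 elsewhere. On the other side of the rule were 1022 regions called in 17 libraries. The library without a peak was ZT8 R for 292 of them and ZT0 L for 153, which were the libraries with the shortest lists (8143 and 7668 peaks). Tall regions were among those left out: Chr13:44926626-44926845 and Chr10:23171899-23172063 had no peak in ZT12 L, and Chr17:4883986-4884183 had none in ZT0 L, with median −log10 q of 1567, 1349 and 931 over the libraries that called them.

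Heights were compared between libraries as percentile ranks, because the lists differed in length from 7668 peaks (ZT0 L) to 21804 (ZT12 M). The percentile rank is the position of a region's tallest peak in its library's list sorted by −log10 q, in percent of the list, so that a low percentile is a tall peak. The peaks over the regions were 10.8% of the longest list (ZT12 M) and 30.3% of the shortest (ZT0 L). The regions' median percentile was 15.4 ± 3.94 at ZT0, 11.2 ± 2.68 at ZT4, and 12.2 ± 5.65 at ZT8, followed by 9.60 ± 3.24 at ZT12, 10.5 ± 3.18 at ZT16 and 13.6 ± 3.21 at ZT20 (SD, n = 3 each). The spread inside a time point was as wide as the range between time points, and a permutation test of the F statistic over the 6 time points (100000 resamples) gave p = 0.463, adjusted p = 0.644 over 4 measures. The same test gave permutation p = 0.483 for the share of the list, 0.728 for the median peak width (308 bp in ZT8 R to 418 bp in ZT12 M) and 0.233 for the median distance of the summit from its usual place (12 bp in ZT12 M to 21.5 bp in ZT8 R). None of the 4 library measures passed the test. The longest list and the 2 shortest held the lowest and highest value of all 4. With an equal number of peaks per list the adjusted p lay between 0.401 and 0.738, the fit with replicate letters included.

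**Figure D1:**
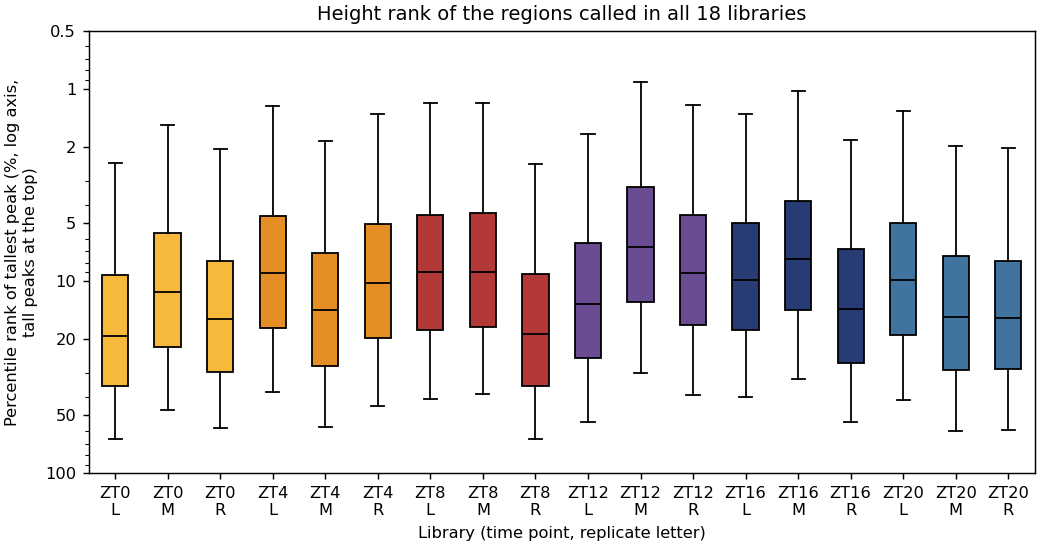
Percentile rank of the tallest peak over each of the 2275 regions in each of the 18 libraries (log axis, tall peaks at the top); boxes show the middle 50% with the median, whiskers reach the 5th and 95th percentile of the regions, and colours mark time points. Medians lie between 6.67 (ZT12 M) and 19.2 (ZT0 L), and libraries of 1 time point differ as much as time points do.

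The order of the regions by height was much alike in all libraries. Spearman's rho between the orders of the 2275 regions averaged 0.807 over the 18 pairs of libraries from the same time point, 0.793 over the 54 pairs 4 h apart, 0.780 over the 54 pairs 8 h apart and 0.777 over the 27 pairs 12 h apart, on a 24-h circle. These are correlations across regions, which are not independent replicates. Within a time point, likeness was highest at ZT12 (0.837) and lowest at ZT20 (0.780). The ranges overlapped, at 0.759 to 0.842 for the same time point and 0.724 to 0.808 for time points 12 h apart.

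To follow single regions, the log2 percentile was centred in each library on its median over the 2275 regions and its sign turned, which gives a score in log2 units that is higher for taller peaks. A score 1 unit higher means that the percentile, relative to the library's median region, is 2-fold nearer the top of the list. The SD of the score over the 18 libraries had a median of 0.58 and ran from 0.035 to 2.13. The SD within time points was nearly as large, with a median of 0.53, and differences between time points held a median of 33.5% of a region's variance, where equal time points would hold 29.4% on average. In the median region the worst percentile of the 18, before centring, was 5.85 times the best. This ratio also holds differences between lists, whose median percentile over the regions ran from 6.67 (ZT12 M) to 19.2 (ZT0 L).

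Steadiness of rank went with height. The score follows rank alone, and the spread of −log10 q or fold was not compared between heights. The regions were divided by their median −log10 q, with bounds set after the values were seen. The 381 regions up to 10 had a median SD of 0.68, the 1050 from 10 to 20 had 0.66, the 469 from 20 to 50 had 0.41, the 62 from 50 to 100 had 0.092 and the 313 over 100 had 0.091. The tallest 313 regions (13.8%) stood apart in other measures too. Their median fold over background was 36.1, their median length 301 bp and the span of their summits over the 18 libraries 9 bp, whereas the regions from 10 to 20 had a median fold of 9.17, a median length of 683.5 bp and a span of 178 bp.

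The tallest regions also differed in where they lay. Of the 313 regions over 100, 49.2% (95% Wilson interval 43.7% to 54.7%) lay within 25% of a chromosome's length from one of its ends, against 74.3% (72.3% to 76.1%) of the 1962 others. For the whole set the share was 70.8% (68.9% to 72.6%), against 76.0% (73.3% to 78.5%) for regions called in 17 libraries and 73.5% (73.0% to 73.9%) for all regions outside the set. The interval of the tallest regions stands apart from every other one given.

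The 5 tallest regions were Chr06:43306656-43306909, Chr13:37139436-37139618, Chr16:19635153-19635487, Chr03:25552055-25552369 and Chr15:4760747-4761055, all of them 183 to 335 bp long. The first stood at 0.133% (ZT12 M) to 0.430% (ZT0 L) of the lists, and its fold over background was 61.7 ± 2.4 at ZT0, 64.9 ± 2.2 at ZT4, and 62.0 ± 1.9 at ZT8, followed by 59.8 ± 2.9 at ZT12, 64.1 ± 1.9 at ZT16 and 62.7 ± 0.96 at ZT20 (SD, n = 3 each). No mean left the range of 59.8 to 64.9. Steadiest of all in rank was Chr11:29752404-29752649, 246 bp long, with an SD of 0.035 and a percentile of 1.06 (ZT12 M) to 3.03 (ZT0 L). Its −log10 q still ran from 382 to 557 and its fold over background from 31.7 to 44.0, so a steady rank is not an unchanged height. The other 4 of the 5 steadiest, on chromosomes 1, 20, 8 and 2, had an SD between 0.045 and 0.048.

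The least steady region was ranked in 9 libraries by a peak with its summit outside it. Chr18:6401098-6401422 had an SD of 2.13, and its libraries fell into 2 clusters that did not follow the time of day and did follow the replicate letter in part. In 9 libraries (ZT0 L and R, ZT8 L, ZT12 L and R, ZT16 L and R, ZT20 L and R) its percentile was 0.0864 to 0.274 and its peak 1031 to 1095 bp wide. In the other 9, which were all 6 libraries lettered M and ZT4 L, ZT4 R and ZT8 R, the percentile was 1.86 to 4.15 and the peak 296 to 322 bp wide. The rank thus moved together with the width of the called peak, which in the first 9 libraries ran far past the 325 bp of the region. The summit of that wide peak was at 6400517, before the region's start, and its fold over background was 39.1 to 45.1. In the other 9 libraries the summit was inside the region, at 6401281 to 6401304, and the fold was 3.96 to 6.32. The SD therefore compares a neighbouring summit with the region's own. No 24-h rhythm was called (amplitude 1.11 ± 0.70 (SE), limma adjusted p = 0.678).

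**Figure D2:**
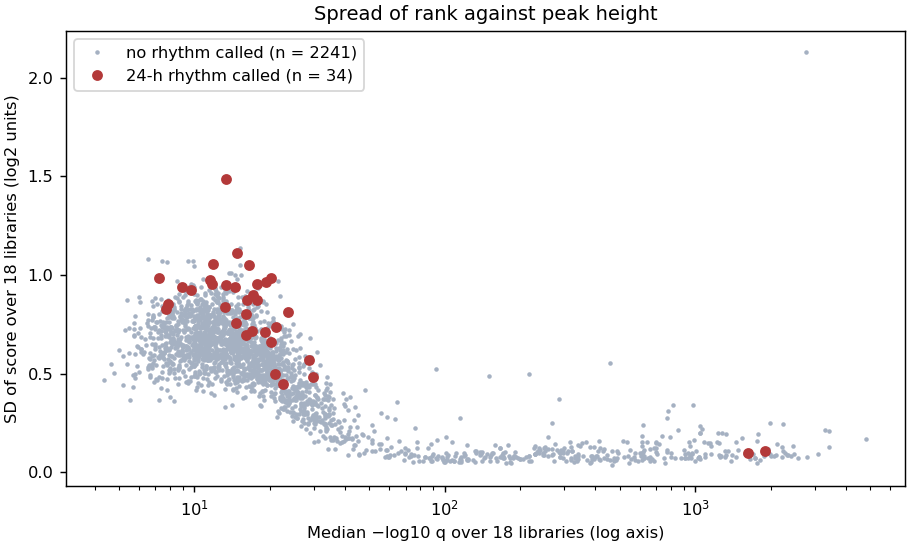
SD of the score over the 18 libraries (log2 units) against the median −log10 q (log axis), 1 point per region, with the 34 regions called rhythmic in red. The spread is wide under a −log10 q of about 50 and narrow above it, where only 2 of the 34 lie. The point at the top right is Chr18:6401098-6401422 with an SD of 2.13, ranked in 9 libraries by a peak with its summit outside the region.

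A 24-h rhythm in height rank was looked for with a cosine and a sine of the hour (limma's moderated F-test), in a table of 4867 regions that had a peak in at least 2 of the 3 libraries of every time point. Of these, 65 regions (1.34%) had an adjusted p under 0.05. Of the 2275 regions, all of which could be tested, 34 (1.49%) were called, against 31 (1.20%) of the 2592 other regions tested. At an unadjusted p under 0.05 the counts were 287 (12.6%) of the set and 13.3% of the whole table. Regions called in 17 libraries gave 19 of 1022 (1.86%), and those in all 6 merged lists but not in every library gave 25 of 2143 (1.17%). The share of rhythmic regions in the set was therefore near the background, and the shares were not tested against each other. The amplitude, the distance of the fitted maximum from the fitted mean, had a median of 0.23 over the set and 0.34 over the other regions tested.

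The 34 regions lay on 17 chromosomes, with amplitudes from 0.096 to 1.92 and a median of 0.94. Of the fitted maxima, 6 were nearest ZT0, 10 nearest ZT4, 2 nearest ZT8, 3 nearest ZT12, 5 nearest ZT16 and 8 nearest ZT20. Thus 24 of 34 (70.6%) were nearest ZT20, ZT0 or ZT4, against 28 of 31 (90.3%) of the rhythmic regions outside the set, of which 15 were nearest ZT20 and 0 nearest ZT12 or ZT16. Over all 2275 regions, mostly with no rhythm called, the count was 1163 (51.1%), and over all regions tested 2742 (56.3%). The tally of the 34 depended on the centring of libraries, without which 5 were nearest ZT0, 8 nearest ZT4, 2 nearest ZT8, 7 nearest ZT12, 6 nearest ZT16 and 6 nearest ZT20, or 19 of 34 (55.9%) nearest ZT20, ZT0 or ZT4, against 26 of the 31 outside the set. The maxima of Chr13:38110167-38110348 and Chr07:40503835-40504169, both counted at ZT4 above, moved by more than 6 h. In each of the 34, the 3 libraries of the highest time point did not overlap those of the lowest, which also held for 1135 (49.9%) of the 2275 regions and for 59.6% of all regions tested. By fold over background, 5 of the 34 had an adjusted p under 0.05, against 0.308% of all regions tested, and 28 an unadjusted p under 0.05, against 10.5%. The maxima by fold and by rank were within 2 h of each other in 31 of the 34 (91.2%), and also in 76.4% of the 2275 regions and 80.8% of all regions tested. Fold and −log10 q come from the same fragments, so fold is no independent support for rank. The number called depended on the scale, between 2 (ranks in percentage points) and 36 (a percentile of 100 where no peak was called), and on single libraries, with 18 without ZT12 R or ZT20 R, 20 without ZT16 L, 21 without ZT4 L and 22 without ZT0 L.

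**Figure D3:**
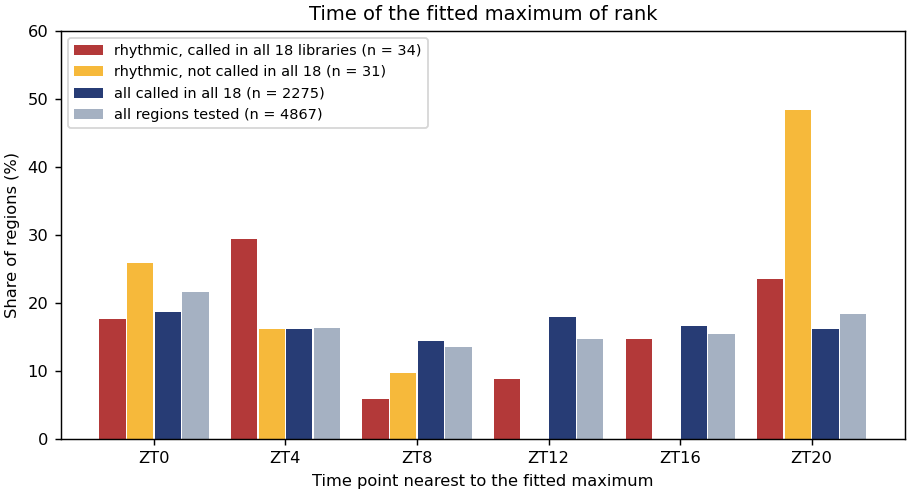
Share of regions (%) by the time point nearest to the fitted maximum of rank, for the 34 rhythmic regions called in all 18 libraries, the 31 rhythmic regions not called in all 18, all 2275 regions called in all 18 and all 4867 regions tested. Of the 34, 29.4% are nearest ZT4 and 23.5% nearest ZT20, while of the 31, 16.1% are nearest ZT4 and 48.4% nearest ZT20.

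Chr05:32149313-32151259, 1947 bp long, had the largest amplitude. Its percentile in L, M and R was 10.4, 5.63 and 9.32 at ZT0, 5.22, 6.29 and 3.67 at ZT4, and 11.1, 3.85 and 11.02 at ZT8. It was 77.6, 35.0 and 46.2 at ZT12, 41.2, 35.9 and 53.8 at ZT16, and 16.9, 18.6 and 19.5 at ZT20. By percentile, all 9 libraries of the first 3 time points were thus taller than any of the other 9. On that scale ZT20 lay between with no overlap on either side. In the centred score, ZT8 L (−0.305) fell among the libraries of ZT20 (−0.771 to −0.275), which stayed above those of ZT12 and ZT16. The fold over background was 9.12 ± 1.02 at ZT0, 10.99 ± 2.79 at ZT4, and 9.90 ± 2.75 at ZT8, followed by 5.77 ± 1.48 at ZT12, 6.29 ± 0.51 at ZT16 and 7.84 ± 0.43 at ZT20 (SD, n = 3 each). The fitted amplitude in rank was 1.92 ± 0.20 (SE) with a maximum at 2.65 h and a limma adjusted p of 2.88e-07, a 14.3-fold fitted range of the percentile. Its tallest peak measured 826 to 1385 bp at ZT0, ZT4 and ZT8 and 263 to 1081 bp at the other times, which overlap, and by limma a rhythm was called in fold (adjusted p = 0.00426), while no rhythm in width was called (limma adjusted p = 0.276).

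Others of the 10 regions with the smallest adjusted p were tall near the same hours. Chr09:37788830-37789668 had a percentile of 8.85, 9.47 and 11.6 at ZT0, 5.24, 7.36 and 6.60 at ZT4, and 13.5, 7.65 and 11.7 at ZT8, followed by 39.4, 18.5 and 23.1 at ZT12, 18.6, 10.4 and 22.4 at ZT16, and 9.91, 11.1 and 9.51 at ZT20. By percentile, the 3 libraries of ZT12 were lower than every library of ZT0, ZT4, ZT8 and ZT20 and overlapped those of ZT16. In the centred score, ZT12 (−1.590 to −1.354) did not overlap ZT16 (−0.916 to −0.430). The region's amplitude was 1.04 ± 0.18 (SE), with a limma adjusted p of 0.00388. Its fold over background did not follow: it was 8.93 ± 0.52 at ZT0, 7.97 ± 0.39 at ZT4, and 6.93 ± 0.60 at ZT8, followed by 7.70 ± 1.64 at ZT12, 8.09 ± 1.04 at ZT16 and 8.35 ± 0.61 at ZT20 (SD, n = 3 each), lowest at ZT8 and not at ZT12, with a limma adjusted p of 0.506.

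Chr14:617663-618471 had a percentile of 20.3, 15.7 and 17.9 at ZT0, 5.18, 7.89 and 5.50 at ZT4, and 10.3, 8.48 and 39.3 at ZT8, followed by 44.3, 18.1 and 48.4 at ZT12, 18.2, 47.8 and 60.6 at ZT16, and 9.58, 12.2 and 18.6 at ZT20. The 3 libraries of ZT4 were above all others, while ZT8 R sat among the low libraries of ZT12 and ZT16. The amplitude was 1.26 ± 0.22 (SE), with a limma adjusted p of 0.00461, and 0.206 by fold over background, whose means ran from 10.6 ± 0.95 at ZT4 to 6.78 ± 2.06 at ZT16 (SD, n = 3 each).

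Chr12:3978742-3979502 reached its fitted maximum at 2.14 h (amplitude 0.96), Chr16:36619849-36620646 at 1.45 h (0.86) and Chr02:48296736-48297360 at 0.84 h (0.81), each with a limma adjusted p of 0.014. In all of these the lowest mean score was at ZT12 or ZT16. None was called by fold over background (limma adjusted p of 0.088, 0.613 and 0.312 in the same order), and the mean fold of Chr16:36619849-36620646 stayed between 9.28 and 10.7. Chr01:24166928-24167658 was lower in the lists throughout, at 9.78% (ZT4 L) to 92.4% (ZT20 M), and its amplitude was 1.00 ± 0.20 (SE) with a maximum at 5.70 h and a limma adjusted p of 0.0155, and 0.204 by fold. Its 6 libraries of ZT4 and ZT8 stood at 9.78% to 27.6%, and its 6 libraries of ZT16 and ZT20 at 31.0% to 92.4%, with no overlap.

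A pair of regions ran the other way round the day. Chr14:46184076-46184694 had a percentile of 11.5, 9.97 and 11.999 at ZT0, 5.69, 14.8 and 5.55 at ZT4, and 4.79, 5.35 and 8.34 at ZT8, followed by 4.64, 2.15 and 3.32 at ZT12, 3.79, 3.04 and 5.24 at ZT16, and 4.43, 5.81 and 6.56 at ZT20. It was thus tallest at ZT12 and ZT16, whose 6 libraries were all above the 3 of ZT0. Its fold over background was 11.3 ± 0.64 at ZT0, 12.5 ± 3.56 at ZT4, and 13.8 ± 1.36 at ZT8, followed by 19.3 ± 2.53 at ZT12, 18.2 ± 1.55 at ZT16 and 15.4 ± 0.61 at ZT20 (SD, n = 3 each). The amplitude in rank was 0.57 ± 0.095 (SE), with a maximum at 14.5 h and a limma adjusted p of 0.0022, and 0.031 by fold.

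Chr20:39215943-39217393, 1451 bp long, was tallest later, with a fitted maximum at 16.9 h. Its percentile was 13.6, 15.9 and 11.0 at ZT0, 11.3, 70.4 and 13.3 at ZT4, and 42.5, 13.5 and 30.1 at ZT8, followed by 6.10, 5.38 and 4.73 at ZT12, 4.48, 3.22 and 7.09 at ZT16, and 9.81, 9.31 and 13.3 at ZT20. By percentile, the 6 libraries of ZT12 and ZT16 were above all 12 others. In the centred score, ZT12 M (0.310) was below ZT20 M (0.722), ZT0 R (0.519) and ZT0 L (0.502). ZT4 M was far below the other libraries of its time point on either scale. The amplitude was 1.09 ± 0.21 (SE), with a limma adjusted p of 0.014, and 0.92 without ZT4 M, the lowest of the fits with a library left out. By fold over background its limma adjusted p was 0.061.

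The remaining one of the 10, Chr13:38110167-38110348, was of the tall and steady kind, with a fold over background of 63.3 ± 2.3 at ZT4 and 57.7 ± 2.3 at ZT12 (SD, n = 3 each) as the highest and lowest means. Its percentile stayed between 0.500 (ZT12 M) and 1.34 (ZT0 L). The fitted amplitude was only 0.096 ± 0.019 (SE), a 1.14-fold fitted range of the percentile, with a limma adjusted p of 0.014. Without the centring of libraries its fitted maximum moved from 3.34 h to 10.4 h, so no direction is given for it.

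**Figure D4:**
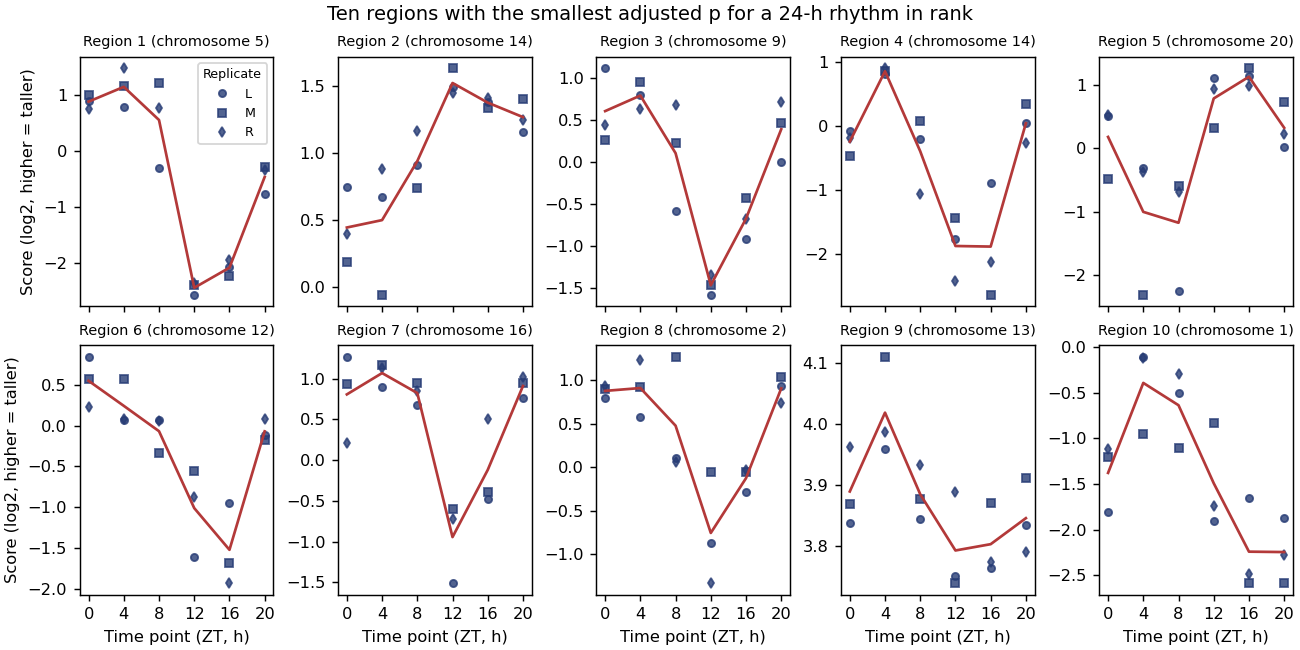
Score (log2 units, higher for taller peaks, own scale in each panel) of the 10 regions with the smallest adjusted p against the time point (ZT, h), with a marker for each replicate letter and a line through the means of 3 libraries. Regions 1, 3, 4, 6, 7 and 8 (Chr05:32149313-32151259, Chr09:37788830-37789668, Chr14:617663-618471, Chr12:3978742-3979502, Chr16:36619849-36620646 and Chr02:48296736-48297360) are lowest at ZT12 or ZT16, regions 2 and 5 (Chr14:46184076-46184694 and Chr20:39215943-39217393) are highest there, and region 9 (Chr13:38110167-38110348) spans only about 0.4 units.

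The other 24 regions called had limma adjusted p between 0.0199 and 0.0437, and those given here as examples were picked after their values were seen. Of those tall at ZT4 and ZT8, Chr05:41066865-41067826 (fitted maximum at 6.28 h) stood at 9.27% to 28.3% in the 6 libraries of both times and at 36.2% to 70.8% in the 6 of ZT16 and ZT20, with no overlap. Around the middle of the cycle, Chr14:7526870-7527201 (maximum at 11.2 h), 332 bp long, had a percentile of 25.9, 27.9 and 72.2 at ZT0 and of 6.41, 5.49 and 5.55 at ZT12. It was 1 of the 5 regions that were also called by fold over background (adjusted p = 0.037). Chr01:51606204-51606754 (maximum at 15.1 h) was at 44.9, 41.3 and 56.4 at ZT0 and at 7.86, 8.29 and 12.7 at ZT16.

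Late in the cycle, Chr19:30327522-30328502 (maximum at 20.8 h), 981 bp long, had a percentile of 70.0, 55.9 and 65.6 at ZT8 and of 12.6, 11.7 and 14.2 at ZT20, and was called by fold as well (adjusted p = 0.039). Chr18:49942498-49943593 (maximum at 18.3 h), also called by fold (adjusted p = 0.037), was at 60.9, 31.7 and 90.3 at ZT8 and at 11.7, 7.92 and 8.09 at ZT16. In each of these regions the libraries of the named time points did not overlap. Chr07:40503835-40504169, like Chr13:38110167-38110348 a tall region, had an amplitude of only 0.11, is given no direction for the same reason, and stood at 0.468% (ZT12 M) to 1.08% (ZT8 R) of the lists.

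Some regions varied widely without a 24-h cosine being called. Chr05:35078478-35079365 had a percentile of 52.3, 67.5 and 46.3 at ZT0, 17.01, 21.5 and 29.0 at ZT4, and 81.2, 46.2 and 25.8 at ZT8, followed by 58.0, 63.2 and 42.9 at ZT12, 61.9, 32.8 and 44.8 at ZT16 and 9.14, 13.8 and 16.7 at ZT20. It was thus tall at ZT4 and at ZT20. By percentile, the 6 libraries of these times overlapped the other 12 only through ZT8 R. In the centred score, ZT0 L (−1.447) also stood above ZT4 R (−1.501). The region's amplitude was 0.81 ± 0.26 (SE), with a limma adjusted p of 0.219. Chr13:31309404-31309912 varied within time points instead, for example from 17.3 (L) and 40.4 (M) to 9.46 (R) at ZT8, and had a limma adjusted p of 0.0844.

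The summit is the base of highest coverage in a peak. The span from the first to the last summit position over the 18 libraries had a median of 163 bp. It was 0 bp in 33 regions, at most 50 bp in 341, over 150 bp in 1247 and over 1000 bp in 21. In 1937 regions every library had a single peak, and their median span was 153 bp, against 293 bp for the regions in which some library had 2 peaks (315) or 3 (23). The widest span, 2240 bp, belonged to the longest region, Chr13:3084866-3088204 (3339 bp). Not every long region had a wide span: Chr15:19589408-19592241, the next longest at 2834 bp, had a span of 56 bp, and stood at 1.71% (ZT12 M) to 5.23% (ZT0 L) of the lists. Across the height classes, median length and median span fell together. They went from 763 bp and 294 bp at a −log10 q up to 10 to 301 bp and 9 bp over 100.

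A 24-h rhythm in summit position was called by limma in 0 of the 2275 regions and in 0 (0.0%) of the 4867 tested. At an unadjusted p under 0.05 there were 103 regions (4.53%), against 4.95% of the whole table. The median amplitude was 17.5 bp in the set and 25.1 bp in the other regions tested. The share of the set was thus near the background.

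The region with the smallest p for the summit held separate peaks, and the libraries did not all call the same one. In Chr08:20586567-20588821, 2255 bp long, the summit lay 148 to 578 bp from the region's start in all 6 libraries of ZT4 and ZT8, and 1502 to 1980 bp from it in all 12 libraries of the other times. The mean distance was 1768 ± 21.2 bp at ZT0, 517 ± 56.7 bp at ZT4, and 349 ± 196 bp at ZT8, followed by 1807 ± 226 bp at ZT12, 1724 ± 200.4 bp at ZT16 and 1839 ± 152 bp at ZT20 (SD, n = 3 each). No library of ZT4 or ZT8 came within 924 bp of any other library. Only 5 of the 18 libraries called more than 1 peak in the region. ZT0 L called 1 peak, 677 bp wide with its summit at 1792 bp, and ZT4 L called 1 peak, 328 bp wide with its summit at 507 bp. These peaks cannot overlap, so different peaks are compared here. The region is in the set only as a joined stretch, and no single place in it was called in every library. The cosine gave an amplitude of 779 bp with a limma adjusted p of 0.129, while limma's test of any difference between the 6 time points gave an adjusted p of 7.82e-05, the only region of the set called by it. No rhythm was called in its height rank (amplitude 0.30, limma adjusted p = 0.747), which ran from 14.9% (ZT16 M) to 79.8% (ZT20 M) of the lists.

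The summit p next in order belonged to Chr19:40285305-40285952, 648 bp long, whose summit lay 306 to 370 bp from the region's start in the 9 libraries of ZT0, ZT4 and ZT8 and 146 to 275 bp from it in the 6 of ZT16 and ZT20. The libraries of ZT12 had 269, 269 and 369 bp. The amplitude was 86.6 ± 15.7 bp (SE), with a limma adjusted p of 0.246, and 0.039 without ZT12 R. Chr19:1275981-1276907 followed, with an amplitude of 124 ± 26.9 bp (SE), a maximum at 16.4 h and a limma adjusted p of 0.622.

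**Figure D5:**
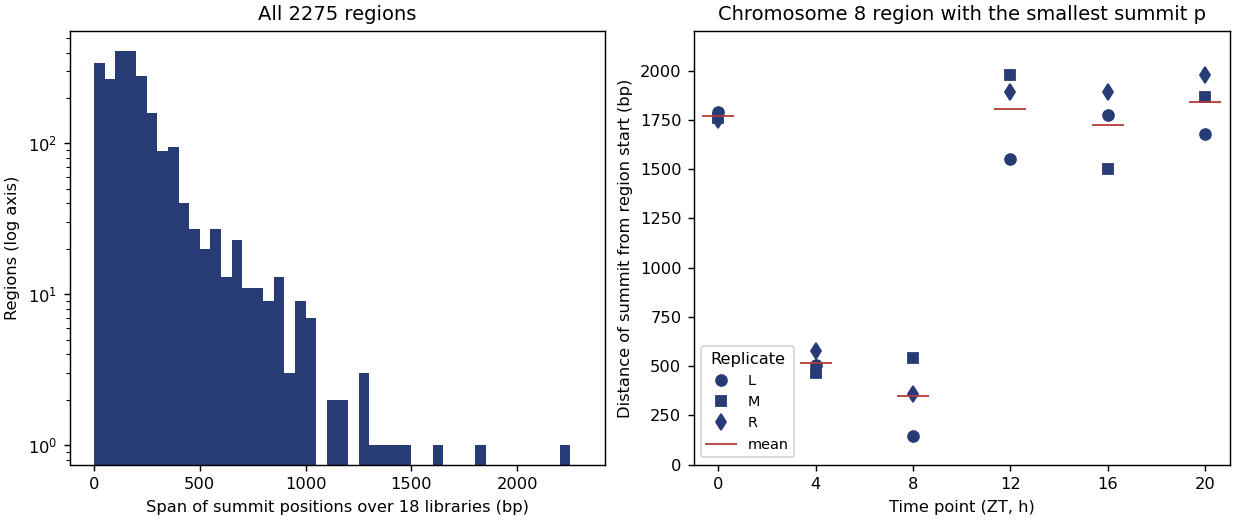
Left, number of regions (log axis) by the span of their summit positions over the 18 libraries (bp, bins of 50 bp). Right, distance of the summit from the region's start (bp) by time point (ZT, h) in Chr08:20586567-20588821, with a marker for each library and a bar for the mean of 3: the 6 libraries of ZT4 and ZT8 lie between 148 and 578 bp and the 12 others between 1502 and 1980 bp.

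Peak width was rhythmic by limma in 3 of the 2275 regions, against 10 (0.205%) of the 4867 tested. At an unadjusted p under 0.05 the counts were 186 (8.18%) in the set and 9.68% of the whole table. Chr10:39032813-39034396 had the longest peaks of the 3, with 780, 716 and 480 bp at ZT0, 1029, 839 and 1099 bp at ZT4, and 1440, 1367 and 882 bp at ZT8, followed by 1335, 1397 and 1449 bp at ZT12, 1287, 1155 and 1162 bp at ZT16, and 924, 1060 and 637 bp at ZT20. Its peak was widest at ZT12 and narrowest at ZT0, with no overlap between them, and the amplitude was 0.45 on the log2 scale (limma adjusted p = 0.0347). No rhythm was called in its height rank (limma adjusted p = 0.348), whose fitted maximum, at 11.6 h, was close to that of width, at 11.3 h.

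In Chr16:36619849-36620646, the only region with a rhythm called in both rank and width, the peak measured 602, 611 and 624 bp at ZT0, 704, 508 and 620 bp at ZT4, and 482, 465 and 334 bp at ZT8, followed by 404, 345 and 505 bp at ZT12, 513, 377 and 360 bp at ZT16, and 619, 631 and 605 bp at ZT20. The 9 libraries of ZT20, ZT0 and ZT4 overlapped the 9 others only through ZT4 M, which at 508 bp was below ZT16 L. The amplitude of width was 0.43 (limma adjusted p = 0.0314), with a maximum at 0.26 h. Chr10:4361895-4362414 was widest near the same hour (amplitude 0.42, maximum at 22.9 h, limma adjusted p = 0.0347). Among the 34 regions rhythmic in rank, 14 (41.2%) had an unadjusted p under 0.05 for width, against 9.68% of all regions tested, and 30 (88.2%) had a maximum of width within 4 h of that of rank, against 51.2% of the 2275 regions and 51.8% of all regions tested. In the 31 rhythmic regions outside the set the counts were 14 (45.2%) and 29 (93.5%). Width and −log10 q of a called peak come from the same fragments, so width is no independent support for rank either. None of the 3 width calls was made when centring was left out or when width was taken in bp. Leaving out ZT0 R, ZT4 L, ZT8 M, ZT12 L, ZT12 M, ZT16 M or ZT20 R left 0 calls, leaving out ZT4 R, ZT12 R or ZT16 L left 1, and leaving out ZT20 L gave 5.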

How the data were processed

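Peak lists of 18 ATAC-seq libraries and the 6 merged lists were used. The authors trimmed reads, aligned them with Bowtie2 to Wm82.a2.v1 keeping several alignments per pair, sampled libraries to a common depth and called peaks on fragments with MACS2, which wrote the deposited fold over background (a ratio), −log10 q and summit. Only the number of peaks in each list was known, which does not by itself measure depth. The merged lists give positions only. The methods of the study also describe leaving out the accessible regions with the highest signals and those low at all 6 time points. Whether the lists used here had been cut in this way was not known, so the tallest regions named are the tallest of these lists. Genes and sequences are not given, since an annotation of this build was not used here.

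A region's tallest peak was the overlapping peak of highest −log10 q, ties in rank averaged. Libraries without a peak were missing values in the table of 4867 regions, and the 2275 regions had none. Rank, summit and log2 width were fitted with limma 3.58.1 in R 4.3.3 (robust, with trend for rank and width, both centred per library). Benjamini-Hochberg adjustment ran over the 4867 regions, with a threshold of 0.05. The fits were tested on simulated data, with rhythms put into 100 regions at each of 2 amplitudes. At 1 median residual SD (0.53 for rank, 44.5 bp for summit, 0.27 for width), 29%, 34% and 21% were found. At 2 SD the shares were 91%, 72% and 64%. Rhythms of small amplitude can therefore be missed. Python 3.11.15, scipy 1.17.1 and matplotlib 3.10.9 were used for the rest. Same-letter deviations from the time-point means correlated weakly, between −0.166 and 0.139 over 45 pairs, 4 of them over 0.1. Their mean was 0.019, against −0.0097 for pairs that differed in letter and time, and 13 of 18 libraries were closest to their own letter. The main fits left the letters out. Chromosome ends were taken as the farthest peak.

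Regions named were the 10 with the smallest adjusted p in rank, the 5 tallest, 5 steadiest and 5 least steady, the 3 with the smallest p for summit and for width, the 3 with the widest summit span, the 3 longest, and 3 on each side of the calling rule, and the text describes the main ones. The members, lists and alternatives were chosen with earlier results of these data known. The intervals cover counting error only.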

Additional observations from a re-analysis of the deposited data

How the results depend on the processing

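The 34 calls of a rhythm in rank depended on scale and height measure. The count was 22 without centring (14 of them among the 34), 12 on a logit scale, 2 in percentage points, 5 by fold over background, 7 with a −log10 q of at least 5 (2115 regions tested), 14 for any difference between time points, and 20 with neither trend nor robust fit. It stayed within 1.5 times at 36 with percentile 100 where not called, 27 with equal lists, 33 with 50% overlap, 32 with regions joined from the library lists (2344 regions), and 27 with the replicate block. Leaving out 1 library gave 18 to 34, with 22 without ZT0 L, 21 without ZT4 L, 20 without ZT16 L and 18 without ZT12 R or ZT20 R. Of the 34, 9 were called in every fit with a library left out. Only Chr05:32149313-32151259 was called in all 10 alternatives that tested each of the 34, and with regions from the library lists too (adjusted p 2.35e-12 to 0.00426). It was 1 of 7 not tested with a −log10 q of at least 5. Chr13:38110167-38110348 turned to −0.06631 without centring. For summits, any difference gave 1 and the other 5 alternatives gave 0, and leaving out 1 library gave 0 to 1 (1 without ZT12 R). For width the count was 0 without centring, 0 in bp and 1 for any difference, and 0 to 5 with a library left out. The replicate block gave 2 for width and 0 for summits; 13 of 18 libraries were closest to their own letter, a hint from the data and not the design. The 4 library measures passed no test under any setting run (adjusted p 0.314 to 0.887 with a library left out).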
